A study of Rattus norvegicus with 18 samples.

Results

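The genes described here are the ligands and receptors of the tumor necrosis factor (TNF) superfamily whose names on the array begin with Tnfsf or Tnfrsf and a number, with TNF itself and Ngfr left out. This rule found 22 genes, 13 receptors and 9 ligands, of 35287 gene names on the array. They were carried by 24 probes, and a gene with more than 1 probe was read from the probe with the highest mean signal over all arrays. Of the 22 genes, 17 could be tested (10 receptors and 7 ligands) because the scanner software marked their probe as well above background throughout 1 or more time-points, and 14 were so on all 18 arrays.

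Ligands of the superfamily are mostly trimeric proteins of the cell surface that can be shed, and their receptors carry cysteine-rich repeats outside the cell. Receptors with a death domain can recruit FADD or TRADD and activate caspases, while many others bind TRAF proteins and switch on NFκB and JNK signaling, and some are decoys. In injured nerves such signals pass between Schwann cells, fibroblasts, endothelium and the leukocytes that enter the tissue.

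The segments came from the proximal stump of the left sciatic nerve of adult male Sprague-Dawley rats, all anaesthetized for the operation and given no other treatment in the labels, at 6 time-points from 0 h (the control) to 9 h after a piece of nerve was cut out just above its division into tibial and common peroneal branches. The time-points were 0 h and then 0.5 h and 1 h, followed by 3 h, 6 h and 9 h, with 3 arrays each. Whether an array carried RNA pooled from several rats is not given in the labels, so P-values measure the spread between these samples. All 0 h and 0.5 h arrays were scanned on 1 day, the last 9 h array on a day of its own, and all others (11 arrays) on the second of the 3 days, so scan day and time cannot be told apart in any comparison of 1 h to 9 h with 0 h. The arrays lay on 9 slides, each with arrays of 1 time-point only. Slide and time therefore cannot be told apart in any comparison, including those within a scan day.

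A level is given below as the log2 signal minus the 75th percentile of the log2 signals on that array, and levels of different probes are not comparable. A change is the difference of the mean levels of 2 time-points with the standard error (SE) of the limma fit. A gene is called where its P-value was under 0.01 and its Benjamini-Hochberg adjusted P-value, over all tested probes, under 0.05.

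The tissue carried its defining markers, since all 10 Schwann cell genes of a list were well above background on the 0 h arrays. Levels of markers of several cell types moved with time. Of 8 listed neutrophil genes 6 were tested and 5 were called over the 6 time-points, each higher from 3 h on; the summed level of the list spanned -1.62 to -0.82 in the 0 h arrays and 4.06 to 4.33 in the 9 h arrays, and none of the 7 genes found stayed below background on every array. The macrophage list (7 genes tested, 6 called) spanned 4.31 to 4.48 at 0 h and from 5 up to 5.46 by 9 h, with 2 genes higher and 1 lower at 9 h. The T cell list (5 tested, 3 called, Cd3e well above background on 2 arrays only) spanned 0.24 to 0.52 at 0 h and between 0.60 and 1.38 by 9 h. Of its genes 3 were called higher and 0 lower at 9 h. Skeletal muscle genes, of which none of 6 was called, spanned 6.52 to 10.27 on the 0 h arrays and 0.03 to 6.88 at 9 h. The Schwann cell list (10 tested, 3 called, near the share of all genes) spanned 9.73 to 9.99 in the 0 h group. It spanned 9.38 to 9.58 in the 9 h group, where 4 of its genes were lower. All 6 fibroblast genes were called, with 5 lower at 9 h, and their sum spanned 10.34 to 10.44 in the 0 h group and 9.82 to 9.90 in the 9 h group. With the summed muscle signal as a covariate, an alternative added after the data were seen, 12 members were called over the time-points, with Tnfrsf9 (F-test adjusted P = 0.0288) in place of Tnfsf10 (0.0611), and at 3 h there were 5 higher and 0 lower in place of 5 and 2. The part of the other lists in the results below was not tested, and fewer cells of a type and less RNA per cell cannot be told apart.

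**Figure D1:**
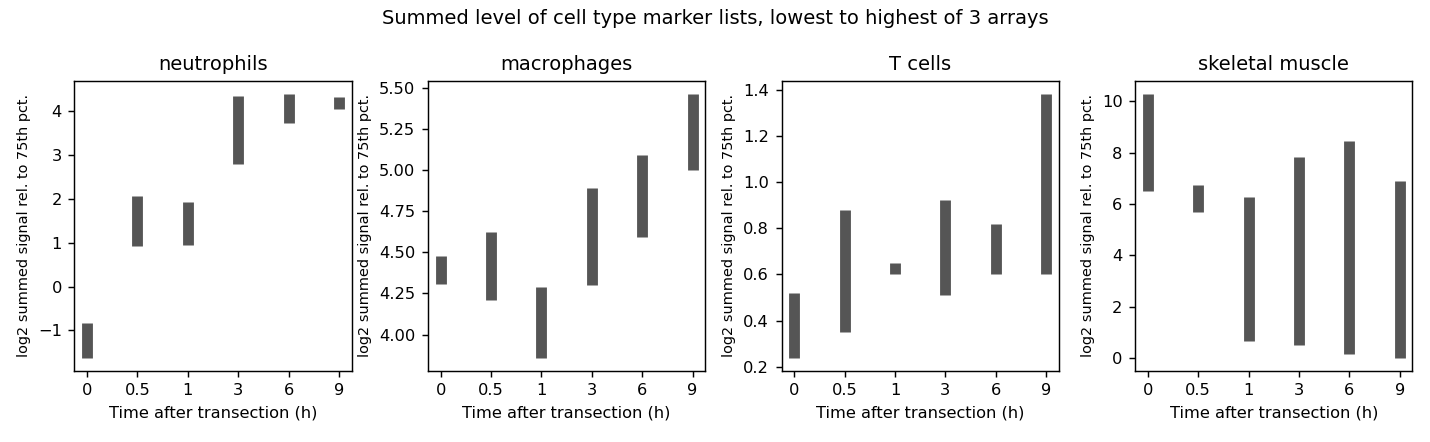
Range of the summed log2 signal of 4 lists of cell type markers (y axis, relative to the 75th percentile) on the 3 arrays of each time-point (x axis, hours after transection). Each bar runs from the lowest to the highest array; the neutrophil bar ends at -0.82 at 0 h and starts at 4.06 at 9 h, and the muscle bars are the widest at every time except 0.5 h.

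A few probes and promoters are shown next, because they belong to the member with the largest change, its ligand, and the genes whose promoters held a motif. Of the 24 member probes, 23 have a position in the rn4 design of the array and 6 span more genome than their own 60 bases, as a probe across an exon junction does. Shown in lower case, 5′ to 3′, are the junction probes of a receptor, of its own ligand and of a second ligand: Tnfrsf12a at chr10:12940920-12941071 on the minus strand (a second probe of that gene), Tnfsf12 at chr10:56504473-56504691 on the minus strand, and Tnfsf14 at chrUn:64495238-64497007 on the minus strand.
Tnfrsf12a: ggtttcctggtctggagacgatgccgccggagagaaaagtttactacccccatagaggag
Tnfsf12: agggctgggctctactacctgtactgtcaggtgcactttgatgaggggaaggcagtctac
Tnfsf14: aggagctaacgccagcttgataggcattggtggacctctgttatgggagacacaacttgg

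RefSeq promoters of the GRCr8 build were matched by symbol for 16 of the 22 genes, and the 250 bases before the start were searched on both strands for the AP-1 motif TGANTCA and for the NFκB consensus. AP-1 matched 2 of the 16 (Tnfrsf1b and Tnfrsf8) and 6.34% of 33469 promoters of that length, and the NFκB consensus matched 2 of the 16 (Tnfsf14 and Tnfrsf8) and 6.33% of all. Shown, with the match in capitals, are the genes with a higher level at 3 h, 6 h and 9 h that held one of them, Tnfrsf1b (AP-1, chr5:162387412-162387661, minus strand) and Tnfsf14 (NFκB, chr9:2160087-2160336, minus strand), beside Tnfrsf12a (chr10:13213649-13213898, minus strand), the gene with the largest change, in which neither motif matched.
Tnfrsf1b: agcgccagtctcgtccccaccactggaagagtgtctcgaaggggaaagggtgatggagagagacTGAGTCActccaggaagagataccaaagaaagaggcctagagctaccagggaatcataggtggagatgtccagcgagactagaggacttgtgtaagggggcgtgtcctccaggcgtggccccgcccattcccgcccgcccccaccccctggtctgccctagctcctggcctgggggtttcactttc
Tnfsf14: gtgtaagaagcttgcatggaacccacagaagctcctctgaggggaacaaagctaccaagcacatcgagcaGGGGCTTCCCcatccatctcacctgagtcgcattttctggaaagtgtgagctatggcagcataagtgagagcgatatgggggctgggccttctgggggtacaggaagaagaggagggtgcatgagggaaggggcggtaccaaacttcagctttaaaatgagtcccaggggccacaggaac
Tnfrsf12a: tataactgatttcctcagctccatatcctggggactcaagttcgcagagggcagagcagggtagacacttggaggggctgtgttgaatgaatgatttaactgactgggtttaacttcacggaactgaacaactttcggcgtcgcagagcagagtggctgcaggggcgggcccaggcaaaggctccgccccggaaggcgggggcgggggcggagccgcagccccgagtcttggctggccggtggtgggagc
The matches are descriptions of these letters. The windows of Tnfrsf1a, Tnfrsf4 and Tnfsf15 held neither motif in the form searched.

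Over the 6 time-points, 12 of the 17 tested members were called by limma's F-test, 6 of 10 receptors and 6 of 7 ligands, against 34.6% of all 27203 tested genes. Of the 12, Tnfsf14 passed the filter on dim probes through its 3 h, 6 h and 9 h arrays only, the groups in which it was high, so its place in these counts is no support for them. At 0.5 h 1 member was called higher (all genes 4.27%) and 0 lower (all genes 1.72%), and at 1 h 2 were higher (3.59%) and 0 lower (2.04%). At 3 h 5 members were higher (7.15%) and 2 lower (6.84%). At 6 h there were 8 higher members (12.0%) and 2 lower ones (13.0%), and 7 higher (15.8%) and 3 lower ones (15.4%) made up the calls of 9 h. Every receptor called against 0 h was higher, 6 at 6 h and 5 at 9 h, and the ligands called went both ways, 2 higher and 3 lower at 9 h. From 3 h through 6 h to 9 h the median change of the 10 receptors was 0.59, 0.92 and 0.71, that of the 7 ligands was -0.30, -0.32 and -0.22, and that of all tested genes was 0, 0.01 and 0.01.

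**Figure D2:**
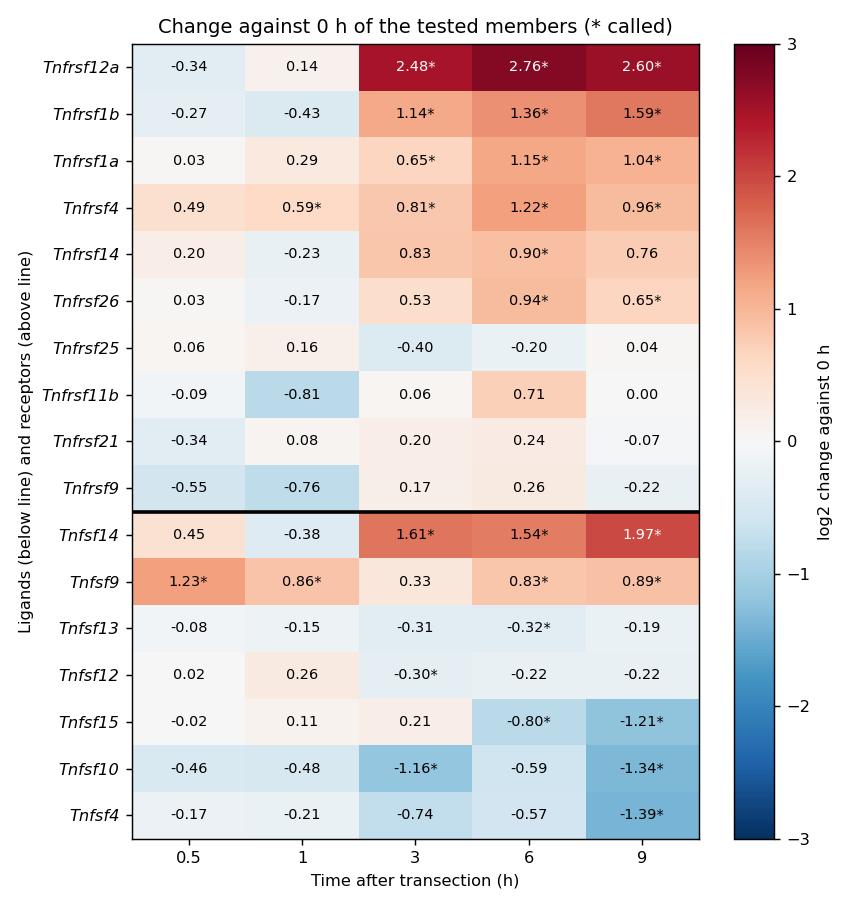
Change of the log2 level against 0 h (colour and number) for the 10 tested receptors (above the line) and 7 tested ligands (below) at each time after transection (x axis, hours). Stars mark called changes; Tnfrsf12a has the largest, 2.76 at 6 h, and Tnfsf4 the lowest, -1.39 at 9 h.

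Among receptors that bind TRAF proteins without a death domain, 5 of 7 were tested and 4 called over the time-points, with 3 of them higher at 3 h, 4 by 6 h and 3 by 9 h, where 34.6% of all genes were called over the time-points and 7.15%, 12.0% and 15.8% were higher at those times. Tnfrsf12a, the receptor Fn14 for the ligand TWEAK, had the largest change of the members. Its level was 1.89, 1.35 and 1.20 on the 0 h arrays, 3.61, 4.16 and 4.10 on the 3 h arrays, 4.51, 4.33 and 3.88 on the 6 h arrays and 4.10, 3.76 and 4.39 on the 9 h arrays. All 9 arrays from 3 h on lay above all 3 arrays of 0 h, while the 0.5 h arrays (1.24, 1.31 and 0.87) and 1 h arrays (1.55, 1.95 and 1.35) overlapped with them. The change was 2.48 (SE 0.24) at 3 h, reached 2.76 (6.77-fold) by 6 h and was 2.60 by 9 h, with limma adjusted P = 2.44e-05, 4.63e-06 and 5.77e-06. The junction probe shown above gave 2.49, 2.86 and 2.89.

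Tnfrsf1b, the second TNF receptor, which is abundant on leukocytes, stood at -0.32, 0.02 and -0.49 on the 0 h arrays and at -1, -0.53 and -0.56 on the 1 h arrays. It was 0.37, 1.07 and 1.18 on the 3 h arrays, 1.04, 0.93 and 1.33 on the 6 h arrays and 1.35, 1.09 and 1.55 on the 9 h arrays. From 3 h on every array was above every 0 h array, and the 1 h arrays all lay below them without a call (adjusted P = 0.243). The change was 1.14 at 3 h and 1.59 (SE 0.22, 3.02-fold) at 9 h, with limma adjusted P = 0.00343 and 0.000118.

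Tnfrsf4, the costimulatory receptor OX40 of activated T cells, had levels of -1.99, -1.66 and -2.07 on the 0 h arrays. They were -1.63, -1.50 and -1.12 on the 0.5 h arrays, -1.45, -1.19 and -1.30 on the 1 h arrays, -1.29, -0.77 and -1.21 on the 3 h arrays, -0.62, -0.57 and -0.88 on the 6 h arrays and -0.93, -1.01 and -0.90 on the 9 h arrays. At every later time all 3 arrays exceeded those of 0 h. The limma change was 0.59 at 1 h (adjusted P = 0.05, just inside the threshold), then 0.81 (0.00504) by 3 h, 1.22 (SE 0.16, 2.32-fold, 0.000153) by 6 h and 0.96 (0.000647) by 9 h. The 3 h call was lost with normexp background correction (0.82, 0.0664) and in a fit to the 6 arrays of the contrast (0.81, 0.0513). The call at 1 h was lost on leaving out any of 14 of the 18 arrays, with changes of 0.51 to 0.66 and adjusted P from 0.0514 to 0.145, and with quantile normalization (0.52, 0.0766), a shift to the median (0.45, 0.111), normexp (0.61, 0.31), the muscle covariate (0.65, 0.07) or the 6 arrays of the contrast alone (0.59, 0.0657).

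Tnfrsf14, the receptor HVEM of the ligand LIGHT, was at -3.31, -2.82 and -2.95 on the 0 h arrays and -2.20, -1.75 and -2.41 on the 6 h arrays, without overlap. The 3 h arrays (-2.81, -1.85 and -1.95) and 9 h arrays (-2.64, -2.30 and -1.86) were also above those of 0 h. A second, dimmer probe had changes of 0.77 (limma adjusted P = 0.138) at 1 h, where the brighter probe had -0.23, and 0.83 (0.0515) at 6 h. The F-test of the second probe was not called (0.0895). Within the second scan day its change from 1 h to 6 h was 0.06 (0.919), and that of the brighter probe 1.13 (0.0243). On the brighter probe Tnfrsf14 was called against 0 h at 6 h alone (change 0.90, SE 0.28, limma adjusted P = 0.027). At 3 h (0.83, 0.0629) it was called with a replicate block (adjusted P = 0.0131), with a filter for probes well above background on all 18 arrays (0.0463), with a trend and robust prior (0.0472) and without 3 h array 1 (1.13, 0.0141) or 9 h array 3 (0.83, 0.0496). At 9 h (0.76, 0.045) it was called with a replicate block (0.00836) and without 3 h array 1 (0.0231) or 9 h array 1 (0.95, 0.0308). The 6 h call was lost with normexp (0.73, adjusted P = 0.456), with quantile normalization (0.78), the deposited matrix or a shift to the median (0.76 each) and the muscle signal as a covariate (0.86), where the unadjusted P passed 0.01, and without 0 h array 1 (0.76, 0.0936) or 3 (0.94, 0.0544) or 6 h array 1 (0.94, 0.0519) or 2 (0.72, 0.105). Tnfrsf9, the costimulatory receptor 4-1BB, was not called against 0 h (changes -0.76 at 1 h to 0.26 at 6 h), and its F-test had adjusted P = 0.0312 with an unadjusted P of 0.0109. It was called lower at 1 h with quantile normalization (-0.90, adjusted P = 0.0241), the deposited matrix (-0.86, 0.0266), a shift to the median (-0.90, 0.027) and without 0 h array 3 (-1.04, 0.0479), and its F-test was called with these and several other settings (0.00348 with quantile normalization).

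Of the receptors with a death domain 4 of 5 were tested, and Tnfrsf1a, the main receptor of soluble TNF, was the 1 called over the time-points, where 34.6% of all genes were. Its level was 2.71, 3.14 and 3.03 on the 0 h arrays, 3.33, 3.81 and 3.69 on the 3 h arrays, 4.04, 4.24 and 4.06 on the 6 h arrays and 4.03, 4.01 and 3.95 on the 9 h arrays. The groups from 3 h on did not overlap with 0 h, and the 0.5 h (2.79, 3.09 and 3.09) and 1 h arrays (3.06, 3.48 and 3.21) did. The change was 0.65 (SE 0.15, limma adjusted P = 0.0117) at 3 h, then 1.15 (2.22-fold, 0.000128) by 6 h and 1.04 (0.0002) by 9 h. The 3 h call was lost without 3 h array 2 (0.55, 0.063), with normexp (0.52, 0.0874), with a shift to the median (0.56, 0.0582) and with the 6 arrays of the contrast alone (0.65, 0.0753). Tnfrsf11b, the secreted decoy osteoprotegerin, ranged from a change of -0.81 at 1 h to 0.71 at 6 h without a call. Tnfrsf21, death receptor 6, had changes of -0.34 to 0.24 and Tnfrsf25, the receptor of TL1A, of -0.40 to 0.16, and neither was called at any time. Tnfrsf21 was called over the time-points with quantile normalization (F-test adjusted P = 0.012), the deposited matrix (0.014), array weights (0.0115) and a shift to the median (0.0168), and lower at 0.5 h with the shift to the median (-0.50, 0.0426). The F-test of Tnfrsf11b was likewise called with the shift to the median (0.0244).

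Tnfrsf26, a receptor in neither class, rose from -4.51, -4.14 and -4.14 on the 0 h arrays to -3.06, -3.44 and -3.46 on the 6 h arrays and -3.62, -3.92 and -3.30 on the 9 h arrays. All 6 of these arrays were above those of 0 h. The 3 h arrays (-3.99, -3.83 and -3.39) were above them too, without a call (change 0.53, limma adjusted P = 0.0811). At 6 h and 9 h the change was 0.94 (SE 0.19, limma adjusted P = 0.00258) and 0.65 (0.0167). With normexp both calls were lost (adjusted P = 0.822 and 0.895). The 9 h call was also lost with quantile normalization (0.37, 0.0613), with the 6 arrays of the contrast alone (0.65, 0.055) and without 0 h array 1 (0.53, 0.0665), 9 h array 1 (0.66, adjusted P = 0.0393 with an unadjusted P over 0.01) or 9 h array 3 (0.49, 0.082).

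**Figure D3:**
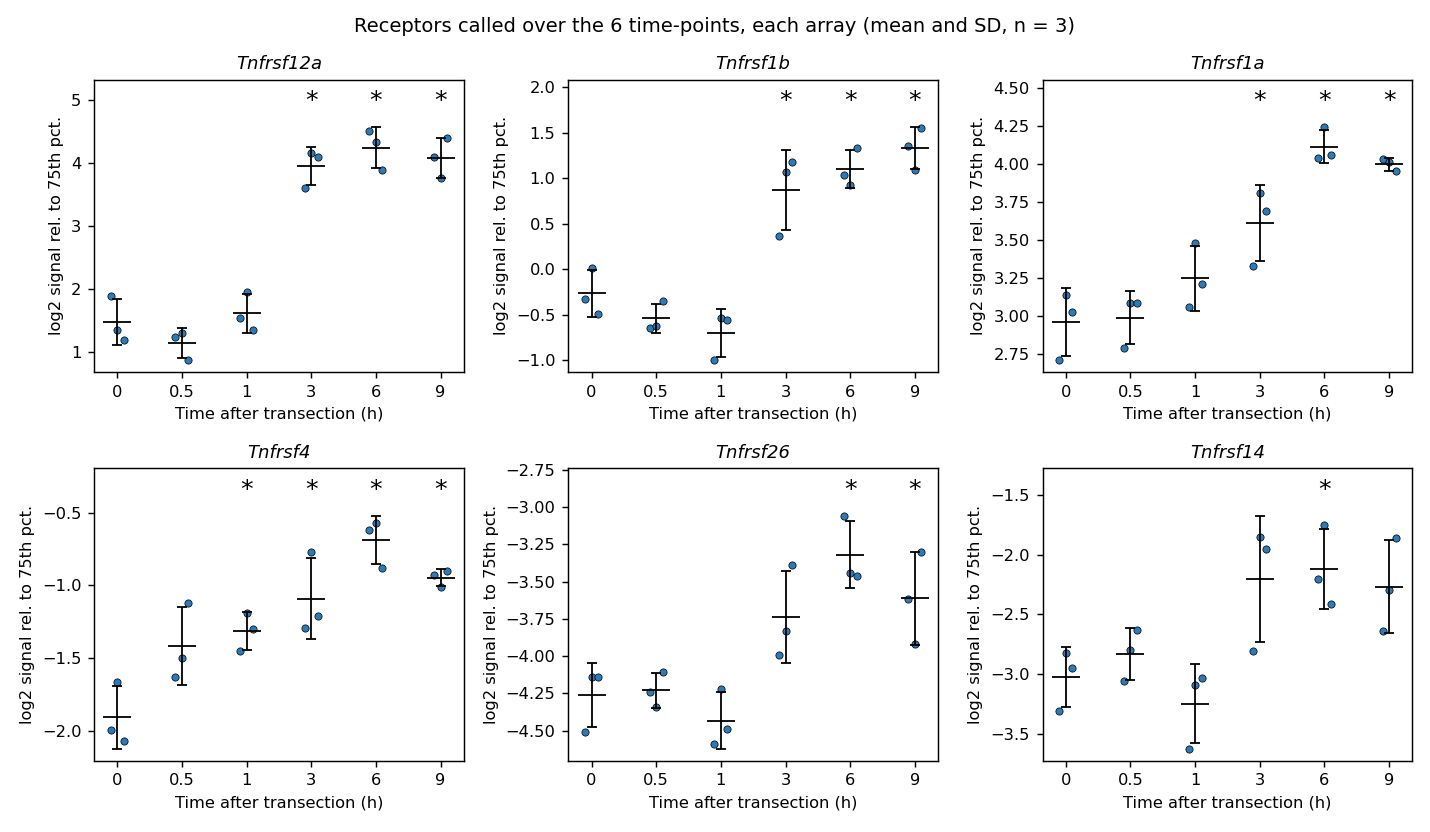
Level of the 6 called receptors on each array (points, log2 signal relative to the 75th percentile) against hours after transection, with mean and SD of 3 arrays and stars for calls against 0 h. Tnfrsf12a steps up between 1 h and 3 h, from arrays at 1.35 to 1.95 to arrays at 3.61 to 4.16.

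Among the ligands, Tnfsf9, the ligand 4-1BBL, was the 1 member called at 0.5 h. Its level was -1.65, -1.30 and -1.57 on the 0 h arrays, -0.23, -0.33 and -0.26 on the 0.5 h arrays and -0.48, -0.56 and -0.89 on the 1 h arrays. The 3 h arrays (-1.39, -1.05 and -1.09) overlapped with 0 h, and the 6 h (-0.70, -0.67 and -0.66) and 9 h arrays (-0.69, -0.85 and -0.32) did not. The change was 1.23 (SE 0.15, 2.35-fold, limma adjusted P = 0.000354) at 0.5 h, 0.86 (0.00396) by 1 h and 0.33 (0.156) by 3 h. It was 0.83 (0.00116) by 6 h and 0.89 (0.000528) by 9 h, and normexp ended the 1 h call (0.83, 0.0791). Its 0.5 h and 0 h arrays shared a scan day, and the fall from 1 h to 3 h within the second scan day was called as well (change -0.53, SE 0.13, limma adjusted P = 0.0483), although the F-test of that day was not (0.0561).

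Tnfsf14, the ligand LIGHT that binds Tnfrsf14, is read by a dim probe that was well above background on 12 of the 18 arrays, 2 of them at 0 h, 1 at 0.5 h and 0 at 1 h, so it entered the tests through the later groups alone. It stood at -6.17, -5.59 and -6.48 on the 0 h arrays, -5.24, -4.48 and -3.68 on the 3 h arrays, -4.22, -4.68 and -4.72 on the 6 h arrays and -4.43, -4.55 and -3.37 on the 9 h arrays. All arrays from 3 h on were above those of 0 h. Against a 0 h group not fully above background the fitted change was 1.61 (SE 0.43), 1.54 and 1.97, with limma adjusted P = 0.0246, 0.0178 and 0.00356. With normexp the changes were 1.51, 0.43 and 0.69 without a call (0.171, 0.97 and 0.687), and quantile normalization gave 0.97 at 6 h (0.0572). The 3 h call was lost without 0 h array 1 (1.57, 0.062) or 3 (1.41, 0.0873) or 3 h array 2 (1.62, 0.0723) or 3 (1.22, 0.0984) and with the 6 arrays of the contrast alone (1.61, 0.0698), and the 6 h call without 0 h array 1 (1.49, 0.0472), 0 h array 3 (1.34, 0.0694) or 6 h array 1 (1.38, 0.063).

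Tnfsf15, the ligand TL1A, known from endothelium, fell late. It was -0.88, -0.94 and -0.85 on the 0 h arrays, -0.78, -0.77 and -0.48 on the 3 h arrays, -1.59, -1.70 and -1.76 on the 6 h arrays and -2.02, -1.87 and -2.41 on the 9 h arrays. The 6 h and 9 h arrays lay below all earlier ones, of which the 0.5 h arrays were -0.83, -1.07 and -0.82 and the 1 h arrays -0.70, -0.86 and -0.76. The change was -0.80 (SE 0.13, limma adjusted P = 0.000622) at 6 h and -1.21 (2.32-fold lower, 1.83e-05) at 9 h. The list of 5 endothelial genes had 1 lower at 9 h, with a summed level of 5.10 to 5.32 at 0 h and 4.69 to 4.82 at 9 h, and its part in this result was not tested.

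Tnfsf4, the ligand OX40L of Tnfrsf4, was at -5.00, -4.49 and -4.74 on the 0 h arrays and -6.29, -6.13 and -5.96 on the 9 h arrays, without overlap. The 3 h arrays (-5.44, -5.42 and -5.59) also lay below those of 0 h. The change at 9 h was -1.39 (SE 0.27, 2.61-fold lower, limma adjusted P = 0.00173), and with normexp it was -0.68 (0.704). Quantile normalization and the deposited matrix also called it at 3 h (-0.97 and -0.94) and 6 h (-1.13 and -1.10), where the changes were -0.74 and -0.57 without a call, and its F-test was lost without 9 h array 1 (0.0364).

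Tnfsf10, the death ligand TRAIL, was at -4.61, -4.31 and -3.60 on the 0 h arrays, -5.56, -5.63 and -4.83 on the 3 h arrays and -5.11, -5.69 and -5.74 on the 9 h arrays. The 3 h and 9 h groups lay below 0 h, with 1 of the 3 h arrays well above background, and the 6 h arrays (-4.29, -5.51 and -4.48) overlapped with it. The change was -1.16 (SE 0.32, limma adjusted P = 0.0276) at 3 h and -1.34 (0.0058) at 9 h. With normexp the change at 3 h was 0.69 (0.37), of opposite sign, and at 9 h -0.69 (0.672). The 3 h call was lost without 0 h array 2 (-1.23, 0.0607) or 3 (-0.88, 0.111) or 3 h array 1 (-1.05, 0.081) or 2 (-1.02, 0.111), and with the skeletal muscle signal as a covariate (-1.08, 0.0666) or the 6 arrays of the contrast alone (-1.16, 0.0806). Its F-test (0.0275) was also lost with normexp (0.387), with the muscle covariate (0.0611) and on leaving out most single arrays.

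The 2 smallest called changes were those of Tnfsf12, the ligand TWEAK of Tnfrsf12a, and Tnfsf13, the B cell ligand APRIL. Tnfsf12 was -1.33, -1.21 and -0.99 on the 0 h arrays, -0.85, -0.95 and -0.95 on the 1 h arrays and -1.34, -1.51 and -1.56 on the 3 h arrays. The 3 h arrays were all lower and the 1 h arrays all higher than those of 0 h. At 6 h and 9 h all arrays were also lower, with a change of -0.22 each and no call (limma adjusted P = 0.0858 and 0.0669). Its change at 3 h was -0.30 (SE 0.09, limma adjusted P = 0.0406), lost on leaving out any of 10 of the 18 arrays (-0.20 to -0.31, adjusted P 0.0524 to 0.158) and with a shift to the median (-0.39, 0.0567), a replicate block (-0.30, 0.0541), the muscle covariate (-0.31, 0.057) or the 6 arrays of the contrast alone (-0.30, 0.183), and 0.13 with normexp (0.568). Tnfsf13 was 0.79, 1.04 and 0.66 on the 0 h arrays and 0.48, 0.46 and 0.58 on the 6 h arrays, a change of -0.32 (SE 0.10, 0.0311) without overlap. That call was lost without 0 h array 1 (-0.35, 0.0488 with an unadjusted P over 0.01) or 2 (-0.22, 0.143) or 6 h array 1 (-0.31, 0.0827) or 2 (-0.30, 0.0888), and with normexp (-0.38, 0.118), the deposited matrix (-0.29, 0.0519) or the 6 arrays of the contrast alone (-0.32, 0.12), and the F-test of Tnfsf13 was not called (0.0928).

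**Figure D4:**
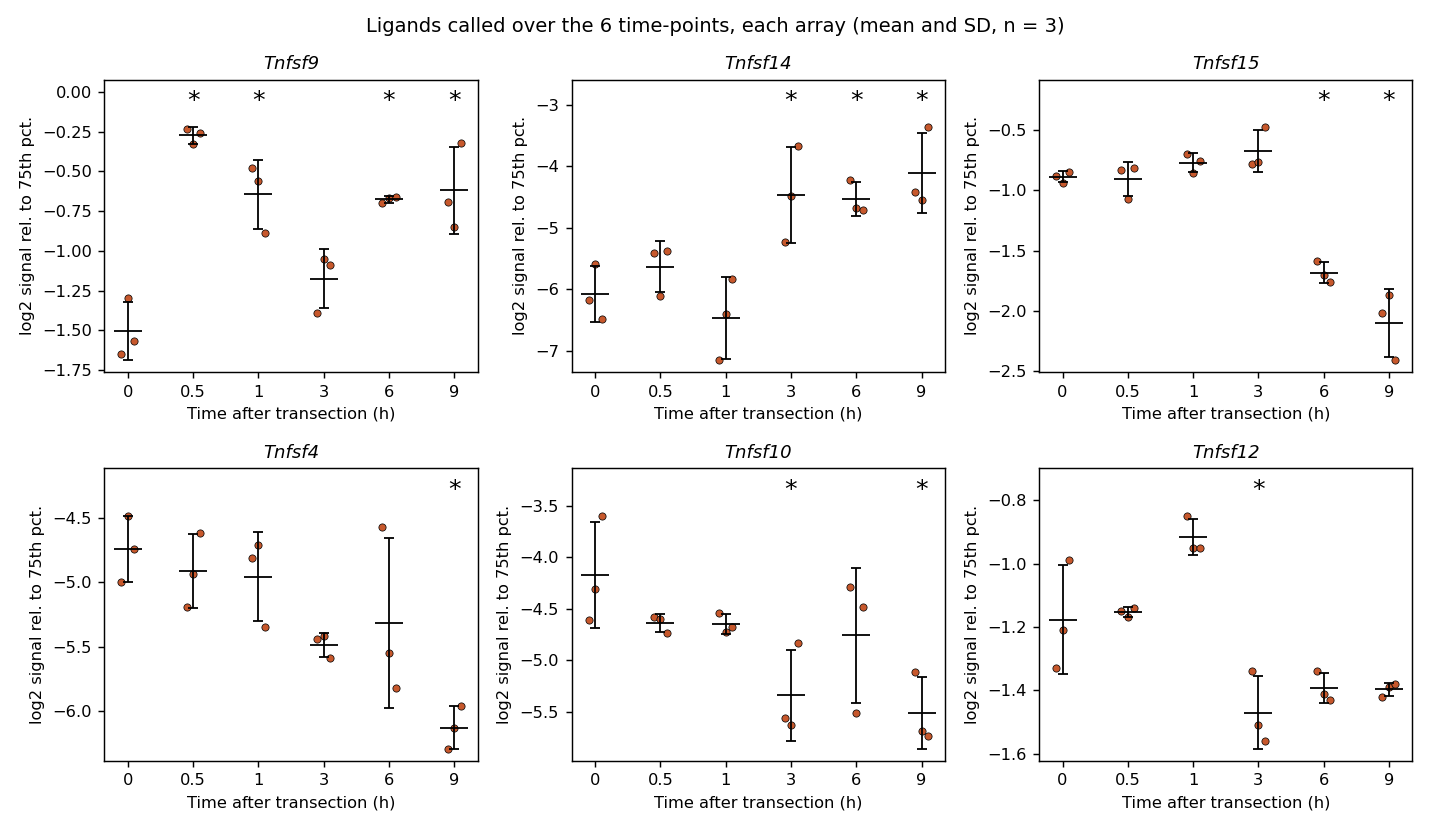
Level of the 6 called ligands on each array (points, log2 signal relative to the 75th percentile) against hours after transection, with mean and SD of 3 arrays and stars for calls against 0 h. Tnfsf9 is high at 0.5 h (-0.33 to -0.23) and back near 0 h at 3 h, and Tnfsf15 is lowest at 9 h.

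Both partners of 6 ligand and receptor pairs were tested, of 16 listed and 9 with both genes among the members. In the Tnfsf12 and Tnfrsf12a pair the changes at 3 h were -0.30 and 2.48, and in the Tnfsf4 and Tnfrsf4 pair those at 9 h were -1.39 and 0.96, each of them called. With normexp the Tnfsf12 change was 0.13 (0.568) and that of Tnfsf4 -0.68 (0.704), and the Tnfsf12 call was also lost without any of 10 of the 18 arrays. Tnfsf14 and Tnfrsf14 had changes of 1.54 and 0.90 at 6 h, but Tnfsf14 was tested only through the groups in which it was high, and both calls were lost under several of the alternatives given above. In the other 3 pairs the ligand was called against 0 h at some time and the receptor at none: Tnfsf9 with Tnfrsf9, Tnfsf10 with Tnfrsf11b, and Tnfsf15 with Tnfrsf25. All comparisons of a pair share the 0 h arrays, and the difference between partners was not tested.

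**Figure D5:**
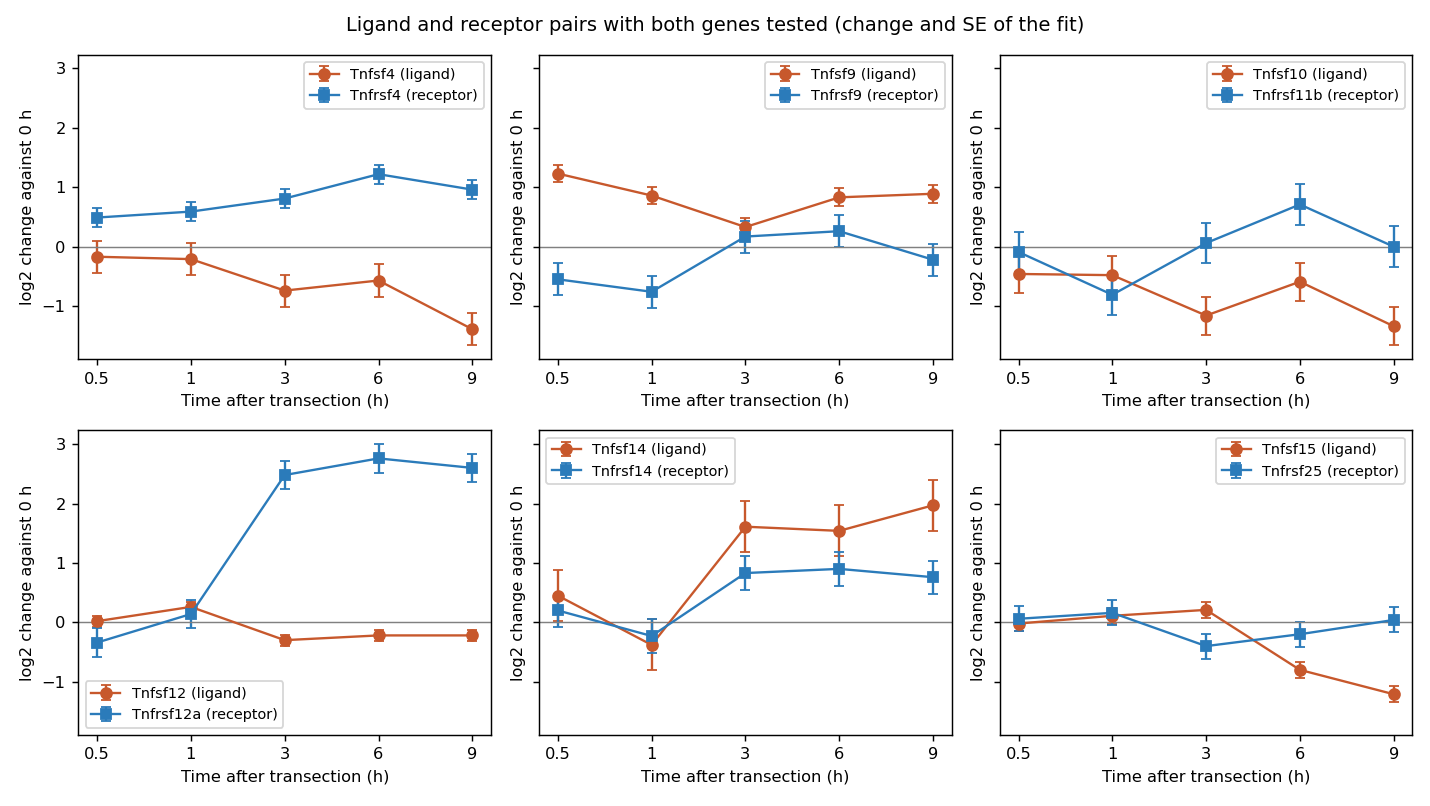
Change of the log2 level against 0 h with the SE of the fit (y axis) for ligand (circles) and receptor (squares) of the 6 pairs with both genes tested, by hours after transection (x axis). At 3 h Tnfrsf12a stands at 2.48 and Tnfsf12 at -0.30.

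Within the second scan day alone, whose 11 arrays run from 1 h to 9 h, 9 of the 17 members were called by the F-test (6 receptors and 3 ligands), against 19.2% of all genes. Among the 3 ligands was Tnfsf14 (F-test adjusted P = 0.0223), well above background on 0 of the 1 h arrays. It passed the filter on dim probes only through the groups in which it was high, so its place in this count is no support for it. Of the 12 called over all 6 time-points, 5 were not called within the day: Tnfrsf4 (F-test adjusted P = 0.0732), Tnfrsf14 (0.0619), Tnfsf4 (0.1), Tnfsf9 (0.0561) and Tnfsf10 (0.275). Single limma contrasts with 1 h were called for Tnfrsf4 (0.62, adjusted P = 0.0207) and Tnfrsf14 (1.13, 0.0243) at 6 h. They were also called for Tnfsf4 at 9 h (-1.26, 0.0353) and Tnfsf9 at 3 h (-0.53, 0.0483), and for Tnfsf10 at no time. Tnfrsf12a was higher than at 1 h by 2.34 (SE 0.23) at 3 h and by 2.62 at 6 h, with limma adjusted P = 0.00194 and 0.000337. Tnfrsf1b was higher by 1.79 (0.00154) and Tnfrsf1a by 0.86 (0.00561) at 6 h, and Tnfsf15 was lower at 6 h with a change of -0.91 (0.00119). Tnfrsf11b and Tnfrsf9, the 2 of the 9 that were not called over all time-points, were called 6 h against 1 h with changes of 1.52 (0.00924) and 1.02 (0.00552). Tnfsf12 was lower than at 1 h in all 3 later groups (changes -0.55, -0.47 and -0.49, adjusted P = 0.0091, 0.00694 and 0.0124).

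The 5 untested members were Tnfrsf10b (a receptor of TRAIL, well above background on 4 arrays), Tnfrsf17 (the plasma cell receptor BCMA, on 0), Tnfrsf8 (CD30, on 3), Tnfsf11 (RANKL, on 2) and Tnfsf18 (GITRL, on 6). No time-point had any of them well above background on each of its arrays, and no change is given for them.

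Behind the receptors, 19 of 23 listed adaptors and signal mediators were tested and 12 called over the time-points, where 34.6% of all genes were. At 3 h 5 were higher and 1 lower (all genes 7.15% and 6.84%), and 6 h had 3 of each (all genes 12.0% and 13.0%). The calls of 9 h were 4 higher and 2 lower, beside 15.8% and 15.4% of all genes, and the median change from 3 h through 6 h to 9 h was 0.08, 0.26 and 0.27. Besides Birc3 (1.83 at 3 h) and Birc2 (1.02), which bind TRAF proteins, Cflar, the inhibitor of caspase 8 at death receptors, changed by 1.15 and Ripk1, the kinase of the TNF receptor complex, by 0.91 at 3 h. Tradd, the adaptor of Tnfrsf1a, fell by 0.70 at 3 h. Of the NFκB subunits and inhibitors 5 of 10 tested were called over the time-points, beside 34.6% of all genes. At 9 h 5 were higher and 0 lower, beside 15.8% and 15.4% of all genes. Nfkbia, the inhibitor that NFκB itself induces, changed by 1.15 at 0.5 h and by 1.83 at 1 h. Its difference at 9 h was 0.19 without a call. Of 9 tested superfamily genes with other names 2 were called over the time-points, beside 34.6% of all genes. They were Ltb, a subunit of lymphotoxin (1.18 at 9 h), and the receptor Relt (0.76 at 9 h). Called higher than 0 h without a called F-test were Ltbr at 9 h (0.72), Faslg at 6 h (0.65) and Eda at 0.5 h (0.72). Their limma adjusted P was 0.0139, 0.0188 and 0.0445.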

How the data were processed

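The intensity values used here are the processed signals of each scanner file as the authors deposited them, linear and background-subtracted by Feature Extraction (10.5.1.1 per the file headers). The matrix the authors deposited, in quantile normalized log2 units, served as an alternative. RNA of rat proximal nerve segments was labelled in 1 colour on 18 arrays, and arrays were grouped by the time in the sample labels.

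Control and outlier spots were left out, log2 processed signals were taken relative to the array's 75th percentile, and spots of a probe were averaged. A probe entered the tests when all 3 arrays of some time-point had it well above background. limma was fitted over all 18 arrays (F-test and contrasts with 0 h), with Benjamini-Hochberg adjustment over 32113 probes. A member is called at P under 0.01 and adjusted P under 0.05. Counts over all genes use 1 probe a gene. Values are given by array for called members, though not at every time-point, by range for other tested members, and by name for the rest. The members and lists were chosen with earlier results of these data known. A first form of the NFκB pattern, which matched Tnfrsf4 as well, was replaced by the consensus after its matches were seen. The fit was tested on simulated data. The number of arrays limits the precision. Alternatives were another background correction (normexp, offset 50) or normalization, the deposited matrix, other filters and thresholds, blocks, weights, the muscle signal as a covariate, a fit to the 6 arrays of a contrast alone, and each array left out. Software was R 4.3.3 with limma 3.58.1 (files read with the data.table package, 1.17.8).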

Additional observations from a re-analysis of the deposited data

How the results depend on the processing

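Normexp background correction moved most counts: 6 members were called over the 6 time-points, 0 at 1 h, 2 at 3 h, 6 each at 6 h and 9 h, and 3 within the second scan day, while all tested genes called over the time-points went from 34.6% to 11.1%. Under it the change of Tnfsf12 at 3 h was 0.13, of opposite sign. Asking for a 2-fold change left 0 at 1 h, 4 at 3 h and 5 at 6 h; a shift to the median gave 2 at 0.5 h; and no filter on dim probes, or the skeletal muscle signal as a covariate (added after seeing the data), gave 1 at 1 h. Leaving out 1 array at a time gave 10 to 13 members over the time-points, 1 at 0.5 h in each case, 1 to 3 at 1 h and 3 to 8 at 3 h (3 without 3 h array 2). It gave 8 to 10 at 6 h, 9 to 11 at 9 h and 6 to 10 within the second scan day. With a replicate block 12, 1, 2, 7, 10, 11 and 10 members were called in that order; same-numbered arrays correlated from -0.26 to 0.56 (median 0.07, 45 pairs), so the numbers were not taken to pair them. The changes of Tnfrsf12a, Tnfrsf1a and Tnfrsf1b at 6 h and 9 h were called under every alternative run. A fit to the 6 arrays of a contrast alone ended 8 calls of members, given beside them above. The dim probes of Tnfsf14, Tnfsf4 and Tnfsf10 limit their values. Fitting scan day as a block set apart only the last 9 h array. It made no adjustment of the 0.5 h change, whose arrays shared a scan day with 0 h.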

Other observations

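A pair of superfamily receptors was missed by the naming rule. Their probes carry a locus name in the files, and their RefSeq accessions name them Tnfrsf18, the receptor GITR of regulatory and activated T cells, and Tnfrsf19, the receptor TROY. They were looked at after their values were seen. Tnfrsf18, well above background on 14 arrays, was at -5.29, -5.66 and -5.96 on the 0 h arrays, -4.70, -4.28 and -3.63 on the 3 h arrays, -2.97, -3.50 and -3.36 on the 6 h arrays and -3.69, -3.55 and -3.15 on the 9 h arrays, and every array from 3 h on lay above those of 0 h. Its probe was dim, well above background on 0 of the 1 h arrays, and the alternatives given above were not run on it. The change of Tnfrsf18 was 1.43 (SE 0.30), 2.36 (5.13-fold) and 2.18, with limma adjusted P = 0.00696, 0.000111 and 0.000146. Its ligand Tnfsf18 is the member that was well above background on 6 arrays and was not tested. Tnfrsf19 was not called, with a change of 1.57 at 6 h (adjusted P = 0.045 with an unadjusted P over 0.01).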
